A study of Homo sapiens with 10 samples.

Results

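The sphere response of H460 and A549 cells, which are established human lung cancer cell lines, was compared gene by gene to find genes and gene families that moved in opposite directions or in 1 line only. Of the 10 libraries of the series, 6 entered the comparison: 3 of parental H460 cells in 2D culture, 1 of H460 tumor spheroid (TS) cells, 1 of A549 cells in 2D culture and 1 of A549 TS cells. The 2D cells grew attached in medium with fetal bovine serum. The TS cells, which the sample labels call CTC after the culture method, grew in suspension on coated plates in serum-free medium with B27, bFGF and EGF and were passaged before RNA was taken, so suspended growth and the change of medium cannot be told apart. The other 4 libraries held H460 cells that had survived cisplatin, paclitaxel or doxorubicin and were not part of the comparison. The sphere response of a gene was the difference TS minus 2D on log2(FPKM + 1), where FPKM is the read count normalized for transcript length and library size; for H460 the mean log2 value of the 3 2D libraries was the control. A response over 1 in size (2-fold, the study's own cut-off) in both lines with unlike signs was called opposite. A response over 1 in a single line, with the other line under 0.5 in size and the responses more than 1 apart, was called a response of that line only. Of the 13685 genes that reached an FPKM of 1 in any of the 6 libraries, 41 had an opposite response and 937 a response in 1 line only. Each line had a single TS library and A549 a single 2D library, so the spread between replicates was known only for H460 2D cells.

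Cells of a carcinoma that lose their attachment lose signals from matrix, spread shape and serum, and many of the genes that answer such signals are shared between cell types. Other genes are tied more closely to a cell type or a signal. Secreted mucins, airway proteins and liver-type plasma proteins belong to differentiated epithelia. Interferon-stimulated genes are switched on by type I interferon or by sensors of nucleic acid. ATF4 is a transcription factor that raises genes of amino acid synthesis, amino acid import and tRNA charging when amino acids are short or the endoplasmic reticulum is under stress.

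The 6 libraries held between 62073451 and 73644667 reads on genes, with a median of 67761839. Each TS library was most like the 2D libraries of its own line: across genes, which are not independent replicates, Pearson's r was 0.955 to 0.97 between H460 TS and H460 2D, 0.934 between A549 TS and A549 2D, and at most 0.85 between lines. The 3 H460 2D libraries differed from each other by more than sampling noise, and 349 to 789 genes were more than 2-fold apart between 2 of them. Of 6 epithelial markers, KRT8, KRT18 and KRT19 were above an FPKM of 1 in every library, whereas EPCAM was at 0.0919 to 0.114 in H460 and CDH1 at 0 to 0.0023, so these adhesion markers were at or near 0 in H460. None of 7 endothelial markers reached an FPKM of 1. Of 10 leukocyte markers, CD14 was above 1 in all 6 libraries and LYZ only in A549 TS cells, with PTPRC at 0 to 0.00459. Of 8 fibroblast markers, COL3A1 was the highest in 5 libraries and LUM in H460 TS cells. In bulk RNA, fewer cells that express a gene and less RNA per cell cannot be told apart.

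More genes passed 2-fold in A549 than in H460. In A549 TS cells 845 of 13685 genes (6.17%) were more than 2-fold higher and 381 (2.78%) lower than in 2D cells. In H460 TS cells 239 (1.75%) were higher and 244 (1.78%) lower, and the median response of all genes was 0.0035 in H460 and -0.06 in A549. Both lines shared 73 higher genes (0.533%) and 42 lower genes (0.307%). An opposite response was found for 41 genes (0.300%), 31 that were higher in A549 TS cells and lower in H460 TS cells (0.227%) and 10 with the reverse order (0.0731%). A549 alone had 562 higher genes (4.11%) and 202 lower genes (1.48%), and H460 alone had 84 higher (0.614%) and 89 lower (0.650%). These counts follow from the cut-offs and carry no test. The control was a single 2D library in A549 and the mean of 3 in H460, so the counts of the lines are not on an equal footing. Between 2 single H460 2D libraries, 349 to 789 genes of the whole table were more than 2-fold apart. Just inside the cut-off of the opposite class lay INPP1, with responses of -1.06 in H460 and 1.02 in A549, and just outside lay AGR2, a protein folding factor of secretory epithelia, with -0.9969 and 4.39.

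**Figure D1:**
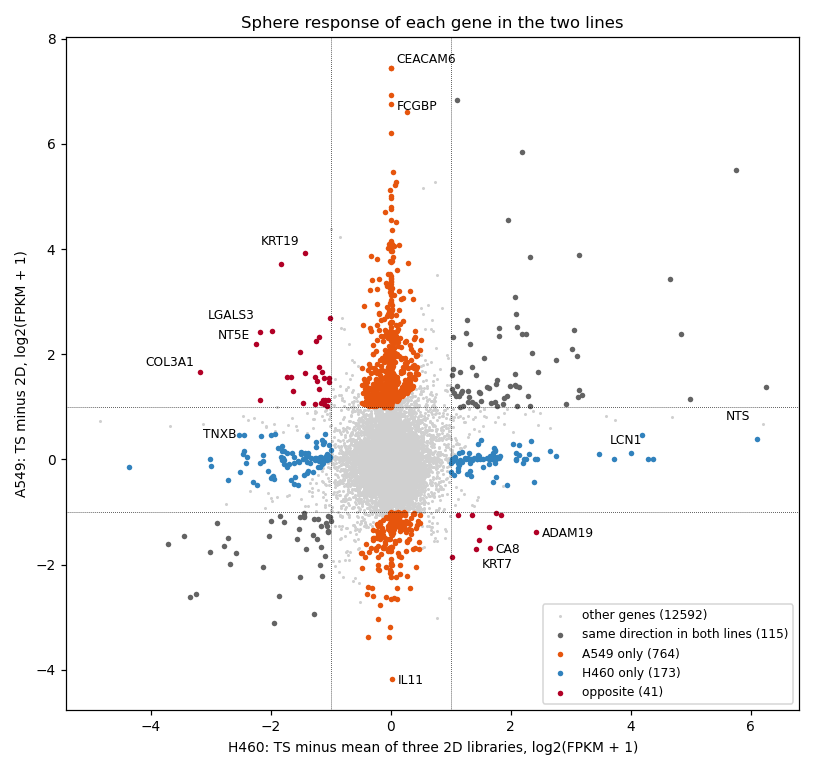
Each point is 1 of 13685 genes, with the response in H460 on the horizontal axis and in A549 on the vertical axis, both as TS minus 2D on log2(FPKM + 1); dotted lines mark 2-fold and colours give the class. The A549 only genes (562 higher, 202 lower) form a tall column at an H460 response near 0, the H460 only genes (84 higher, 89 lower) a narrower band along the horizontal axis, and the 41 opposite genes lie in the upper left and lower right corners.

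The difference between the responses of the lines was tested over all genes with edgeR's quasi-likelihood test on the read counts. With Benjamini-Hochberg adjustment it called 87 of 19941 genes (0.436%), 68 with the A549 response above that of H460 (0.341%) and 19 below (0.0953%), and 1628 genes (8.16%) had an unadjusted p below 0.05. DESeq2 called 539 genes (2.70%). The spread in this test came from the H460 2D libraries alone, with 2 residual degrees of freedom, and the other groups were assumed to vary alike. In a simulation of this design over 18941 genes, 17.5% of 97 genes changed by 2 on the log2 scale were recovered and 78.6% of 103 genes changed by 3. A gene that missed the threshold is therefore not shown to respond alike. The simulation gave all groups the same spread and changed only genes expressed in 2D cells of both lines, so it does not check that assumption. Among the 41 opposite genes, 14 of 31 and 2 of 10 passed, but the genes were chosen on the same differences and the count gives no further support.

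Among the genes that were higher in A549 TS cells and lower in H460 TS cells were surface, matrix and cytoskeletal proteins of carcinoma cells. NT5E (CD73; chr6:85450083-85495784, GRCh38.p14), which turns extracellular AMP into adenosine, had an FPKM of 13.5, 17.3 and 12.9 in the 3 H460 2D libraries and 2.27 in H460 TS cells, but 8.49 in A549 2D cells and 42.5 in A549 TS cells. Its response was -2.24 in H460 and 2.20 in A549 (adjusted p of the difference 0.019, edgeR). The H460 TS library lay below every 2D library, and A549 TS was the highest of the 6.

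KRT19, a keratin of simple epithelia (chr17:41523617-41528308), averaged 374 ± 32.2 FPKM (SD, n = 3) over the H460 2D libraries and was at 138 in H460 TS cells. In A549 it was at 3.57 in 2D cells and 68.3 in TS cells. The difference between the responses was 5.35 on log2(FPKM + 1) and 5.73 on the read counts, which were tested (adjusted p 0.0149, edgeR). KRT19 was thus low only in A549 2D cells, and the lines stood closer to each other as TS cells.

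LGALS3 (galectin-3, a lectin that binds glycoproteins) was at 404, 591 and 508 in H460 2D cells, 109 in H460 TS cells, 16.1 in A549 2D cells and 90.4 in A549 TS cells. COL3A1, a fibrillar collagen, was at 13.7, 21.3 and 26.5 in H460 2D cells and 1.30 in H460 TS cells, whereas A549 had 1.96 in 2D and 8.42 in TS cells. LGALS3 was closer between the lines as TS than as 2D cells, and COL3A1 stood in the reverse order. The differences between responses were 4.59 and 4.85 on the log2 scale (adjusted p 0.0262 and 0.0251, edgeR).

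SYBU, which links vesicles to kinesin, went from 3.19 ± 0.324 (n = 3) to 0.0594 in H460 and from 1.63 to 13.4 in A549. EMP1, a membrane protein of epithelial cells, went from 2.85 ± 0.354 (n = 3) to 0.156 in H460 and from 2.33 to 8.92 in A549. Its level in A549 2D cells was just below those of the H460 2D libraries, and the TS libraries were the lowest and the highest of the 6. PRR5L, a partner of the mTORC2 complex, was at 13.3 to 15.5 in H460 2D cells and 0.564 in A549 2D cells, but nearly level as TS cells, with 3.81 in H460 and 3.64 in A549.

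CAPG, which caps actin filaments, was at 5.17 to 7.53 in H460 2D cells, 1.59 in H460 TS cells, 10.6 in A549 2D cells and 46.6 in A549 TS cells. S100A4, a calcium-binding protein known from motile cells, was at 566, 1119 and 667 in H460 2D cells, 277 in H460 TS cells, 236 in A549 2D cells and 741 in A549 TS cells. Its difference of 3.08 on the log2 scale did not pass (adjusted p 0.126, edgeR), and its 3 H460 2D values spread widely.

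Other genes of this kind included VTN, the serum adhesion protein vitronectin, with responses of -1.26 in H460 and 1.56 in A549, and MARCKS, an actin-binding substrate of protein kinase C, with -1.23 and 1.48. FADS2, the delta-6 fatty acid desaturase, was at 22.1 ± 8.63 (n = 3) and 9.07 in H460 2D and TS cells and at 111.6 and 330.7 in A549. PDK4, which holds back pyruvate dehydrogenase, and TXNIP, an inhibitor of glucose uptake, belonged here by the mean of the controls only. PDK4 was at 3.65, 15.8 and 28.1 in the H460 2D libraries and 4.56 in H460 TS cells, and TXNIP at 12.7, 51.8 and 63.9 and 15.9, so that for both genes the TS value lay above the lowest 2D library. SULT1A3 and SULT1A4, sulfotransferases of nearly the same sequence on chromosome 16, were both in the class and may share reads. In all, H460 TS cells were more than 2-fold below every single 2D library on log2(FPKM + 1) for 15 of the 31 genes. That scale is stricter than FPKM for genes near 0. MARCKS, at 0.196 in H460 TS cells and 0.9515 to 3.15 in H460 2D cells, was not among the 15.

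The 10 genes that were higher in H460 TS cells and lower in A549 TS cells included another keratin. KRT7, a keratin of glandular epithelia (chr12:52233243-52255853), was at 3.25, 3.42 and 4.03 in H460 2D cells and 11.2 in H460 TS cells, but at 1221 in A549 2D cells and 372 in A549 TS cells. Its difference was -3.13 on the log2 scale (adjusted p 0.0622, edgeR). KRT7 and KRT19 therefore had reversed patterns in the lines, although KRT7 did not pass the test.

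CA8, a carbonic anhydrase-related protein without enzyme activity, was at 0.303 to 0.535 in H460 2D cells, 3.55 in H460 TS cells, 10.9 in A549 2D cells and 2.70 in A549 TS cells. ADAM19, a membrane-bound metalloprotease, was at 2.16, 2.82 and 4.51 in H460 2D cells and 20.6 in H460 TS cells, and at 3.37 and 0.679 in A549 2D and TS cells. These were the 2 genes of the group that passed the test (adjusted p 0.0286 and 0.0457, edgeR).

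PTGES, which makes prostaglandin E2, was at 31.2, 28.7 and 20.6 in H460 2D cells and 75 in H460 TS cells, and at 42.8 and 14.2 in A549 2D and TS cells. GDF15, a secreted stress cytokine, was at 34.1, 13.8 and 21.8 in H460 2D cells and 76.1 in H460 TS cells, and at 58.6 and 28.3 in A549. PTP4A1, a phosphatase of growing cells, went from 37.3 ± 14.5 (n = 3) to 129.9 in H460 and from 74.2 to 35.2 in A549. For each of these genes H460 TS cells were above every other library. EPAS1, the hypoxia-inducible factor HIF-2 alpha, had responses of 1.12 in H460 and -1.05 in A549, but its H460 TS value of 45.0 was less than 2-fold above the highest 2D library, at 27.8. ARHGAP29 (a GTPase-activating protein), IFFO2 (an intermediate filament family member) and AKAP12 (a scaffold for protein kinases A and C) completed the group, with H460 responses of 1.02 to 1.65 and A549 responses of -1.05 to -1.85.

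**Figure D2:**
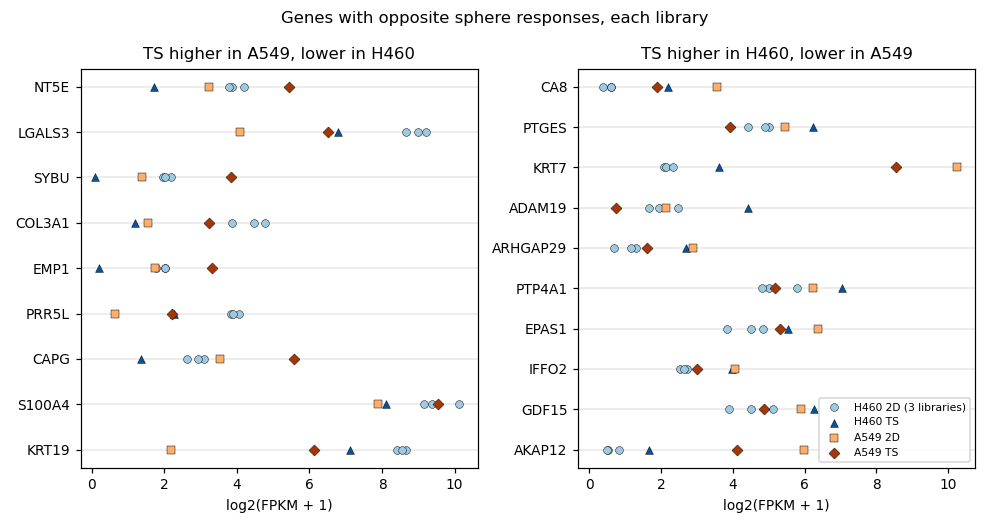
Expression of 19 opposite genes in each of the 6 libraries on log2(FPKM + 1), with circles for the 3 H460 2D libraries, triangles for H460 TS, squares for A549 2D and diamonds for A549 TS. In the left panel triangles lie left of the circles and diamonds right of the squares; in the right panel the order is turned, with KRT7 higher in A549 than in H460 in either culture.

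The opposite genes were also compared between the lines within each culture, using the same libraries. Of the 31 genes higher in A549 TS cells, 19 were lower in A549 than in H460 as 2D cells and 25 were higher as TS cells, and the order of the lines was turned for 13. The gap between lines was smaller as TS than as 2D cells for 11. All 10 genes with the reverse response were higher in A549 as 2D cells, 8 of them turned their order as TS cells, and the gap was smaller for 6. These values share their libraries with the responses that chose the genes and are a description.

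Gene families were described with 43 lists, by how many detected members passed 2-fold and by the median response in each line. A list was said to respond in 1 line only where its median was over 0.5 in size in that line and under 0.25 in the other. By that rule 20 lists responded in A549 only, none in H460 only, and the S100 list was opposite. A gene that is detected only in A549 TS cells had to be higher there, so the lists were also described over members that reached an FPKM of 1 in a 2D library, which left 15 of the 20. No list was tested, and the median of all genes (0.0035 in H460, -0.06 in A549) is the level to compare with. For counts past 2-fold, the shares over all genes were 6.17% higher and 2.78% lower in A549, and 1.75% and 1.78% in H460. For counts that passed the test of the difference, they were 0.436% by edgeR, 2.70% by DESeq2 and 8.16% by unadjusted edgeR p.

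**Figure D3:**
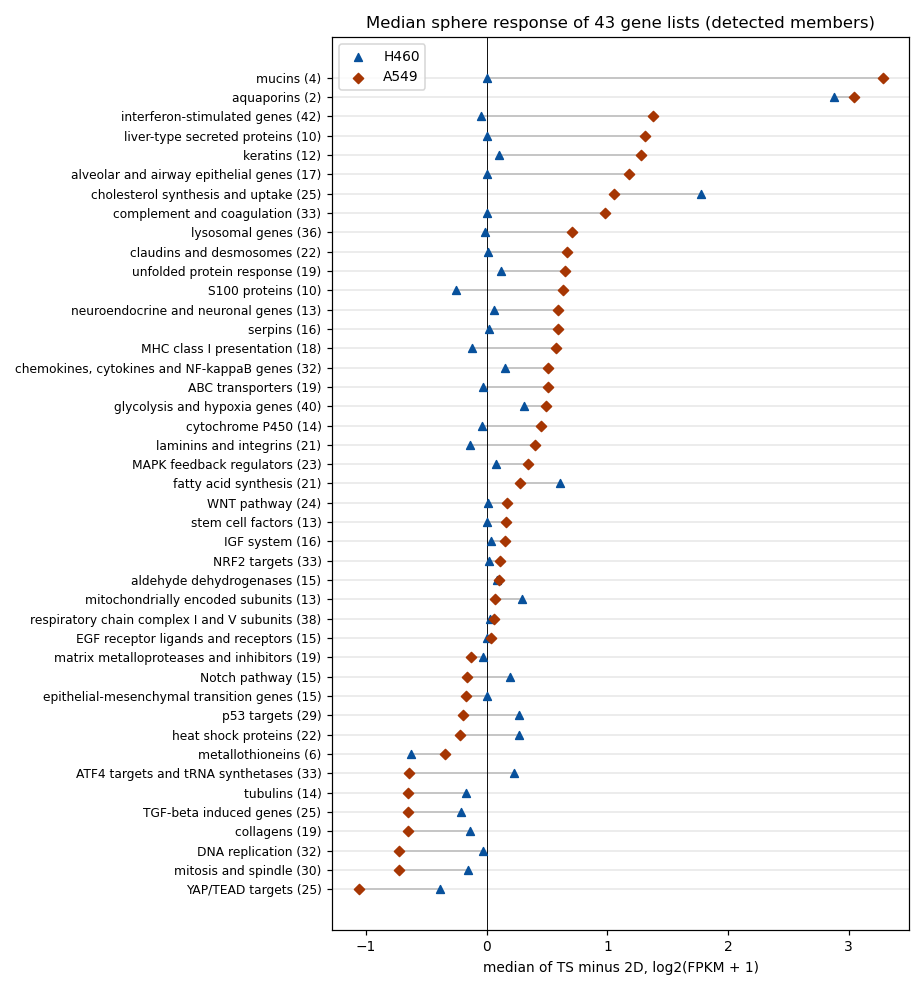
Median response of the detected members of 43 gene lists (member number in brackets), with triangles for H460 and diamonds for A549, as TS minus 2D on log2(FPKM + 1). Mucins, interferon-stimulated genes, liver-type proteins, keratins and airway genes lie to the right in A549 with H460 near 0, ATF4 targets lie on opposite sides of 0, and cholesterol genes lie to the right in both lines.

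Interferon-stimulated genes were higher in A549 TS cells and not in H460 TS cells. Of 42 detected members, 25 were more than 2-fold higher in A549, none was lower, and the median response was 1.38. Of the 42, 9 were detected in A549 TS cells alone, and over the 31 detected in a 2D library 17 were higher and the median was 1.08. In H460 none passed 2-fold in either direction, the median was -0.05, and H460 TS lay within the range of the 2D libraries for 20 members. The tested difference passed for 3 members (IFI6, IFI27 and IFI44) by edgeR and for 19 by DESeq2, against 0.436% and 2.70% of all genes tested.

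IFI6, a mitochondrial protein induced by interferon, was at 20.4, 23.5 and 17.4 in H460 2D cells, 10.8 in H460 TS cells, 3.38 in A549 2D cells and 81.7 in A549 TS cells (adjusted p of the difference 0.016, edgeR). IFI27, also of the ISG12 family, was at 0.458 to 0.854 in H460 2D cells, 0.262 in H460 TS cells, 0.375 in A549 2D cells and 19.1 in A549 TS cells. IFITM1, which blocks virus entry, was at 1.23, 2.69 and 4.34 in H460 2D cells, 2.41 in H460 TS cells, 0.846 in A549 2D cells and 28.9 in A549 TS cells. A549 TS cells were thus the highest library for all 3 genes, and H460 TS cells lay below the H460 2D range for IFI6 and IFI27 and within it for IFITM1.

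The ubiquitin-like modifier ISG15 went from 3.55 to 31.0 in A549 and stayed at 2.77 to 5.42 over the 4 H460 libraries. The antiviral GTPase MX1 went from 0.106 to 4.82 in A549 and did not exceed 0.297 in H460. The factors that carry the interferon signal were in the same group, with A549 responses of 1.85 for IRF9, 1.08 for STAT2 and 1.97 for IRF7. OAS1, which makes the activator of RNase L, was at 76.1 to 138.5 in H460 2D cells and 82.0 in H460 TS cells and still lower in A549, with 15.8 and 48.2. A549 therefore moved towards a level that H460 already had for OAS1, and past it for IFI6 and ISG15. HERC5, an ISG15 ligase, was the only member with a negative A549 response (-0.78).

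The promoters of many of these genes carry the sequence to which the interferon-activated factor ISGF3 and IRF proteins bind. Its core, a pair of GAAA blocks with 2 bases between them, was searched on both strands in the 250 bases before each start in a RefSeq promoter table (GRCh38.p14), which lists 1.29 starts per gene on average and 1.27 per list member. It was found before at least 1 start for 1014 of 27305 genes (3.71%) and for 23 of 33 list members in the table (69.7%). Some starts, as those shown for IFI27 and MX1, lie inside the outer bounds of the gene. Among members the median A549 response was 1.61 with a match and 1.04 without, and the H460 medians were -0.09 and -0.05. The windows of the 6 members with a match and the largest A549 responses follow, with the matched letters in capitals (TTTC blocks are the core on the other strand); a match is not evidence of binding.
IFI6, chr1:27672251-27672310, minus strand: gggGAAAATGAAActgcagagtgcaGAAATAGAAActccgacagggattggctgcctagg
IFITM1, chr11:313975-314034, plus strand: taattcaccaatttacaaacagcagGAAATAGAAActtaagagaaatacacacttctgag
IFI27, chr14:94110616-94110675, plus strand: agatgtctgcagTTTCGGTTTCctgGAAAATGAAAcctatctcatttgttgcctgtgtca
ISG15, chr1:1013365-1013424, plus strand: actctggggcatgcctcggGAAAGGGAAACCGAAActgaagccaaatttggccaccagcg
IFIT1, chr10:89392495-89392554, plus strand: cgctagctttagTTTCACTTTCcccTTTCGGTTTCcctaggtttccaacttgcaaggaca
MX1, chr21:41431829-41431888, plus strand: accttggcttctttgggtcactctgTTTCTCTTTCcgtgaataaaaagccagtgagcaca

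Genes of MHC class I presentation were close in pattern. Of 18 detected members, 6 were more than 2-fold higher in A549 TS cells (HLA-B, HLA-C, HLA-E, HLA-F and B2M among them) and none in H460 TS cells, with medians of 0.58 and -0.12. B2M, the light chain of the complex, was at 382.5, 519.7 and 368.5 in H460 2D cells and 391.8 in H460 TS cells, and went from 196.7 to 585 in A549. HLA-B went from 7.11 to 25.5 in A549, against 21.7 in H460 TS cells. The HLA genes are alike in sequence and may share reads. No member passed the test of the difference by edgeR. An unadjusted edgeR p below 0.05 was found for 7 (8.16% of all genes tested), and 2 passed by DESeq2 (2.70% of all).

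ATF4 targets and tRNA synthetases had the reverse pattern, with lower values in A549 TS cells. Of 33 detected members, 7 were more than 2-fold lower in A549 and none higher, and 29 had a negative response, with a median of -0.64. In H460 the median was 0.23, 24 members had a positive response, and only GDF15 passed 2-fold. The enzymes of serine synthesis stood out by size. PHGDH, the first enzyme, was at 106.6, 97.1 and 111.7 in H460 2D cells, 103.8 in H460 TS cells, 32.6 in A549 2D cells and 9.08 in A549 TS cells. PSAT1, the second, was at 117.9 to 165.8 in H460 2D cells and 179.8 in H460 TS cells, and went from 96.6 to 29.0 in A549.

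ASNS, which makes asparagine, was at 56.8 to 76.8 in H460 2D cells and 79.3 in H460 TS cells, and went from 43.7 to 12.4 in A549. SLC7A5, the importer of large neutral amino acids, went from 629.7 to 195.5 in A549 and was at 47.9 to 127.9 in H460 2D cells and 119.6 in H460 TS cells. The mitochondrial folate enzyme MTHFD2 went from 62.6 to 25.01 in A549, with 83.7 to 89.0 and 95.0 in H460. ATF4 itself had responses of 0.21 in H460 and -0.48 in A549, and DDIT3 and TRIB3, which answer endoplasmic reticulum stress, were on the positive side in A549. No member passed the test by edgeR. An unadjusted edgeR p below 0.05 was found for 9 (8.16% of all genes tested), and 3 passed by DESeq2 (2.70% of all).

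The C/EBP-ATF response element, to which ATF4 binds, was searched with the letters TGATGNAA in the same way. It was found for 1061 genes (3.89%) and for 6 of 28 members in the table (21.4%), which had more listed starts (1.57 per member). Per start, the shares were 3.14% and 13.6%. The start shown for ASNS lies inside the bounds of its gene. The median A549 response was -0.82 with a match and -0.54 without. The windows of the 3 members with a match and the largest A549 responses are given, with the match in capitals.
ASNS, chr7:97872444-97872501, minus strand: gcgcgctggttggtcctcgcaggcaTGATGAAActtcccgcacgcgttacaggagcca
CHAC1, chr15:40953237-40953294, plus strand: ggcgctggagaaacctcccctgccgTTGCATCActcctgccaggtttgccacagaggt
ATF3, chr1:212565191-212565248, plus strand: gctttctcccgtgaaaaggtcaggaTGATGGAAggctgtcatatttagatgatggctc

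**Figure D4:**
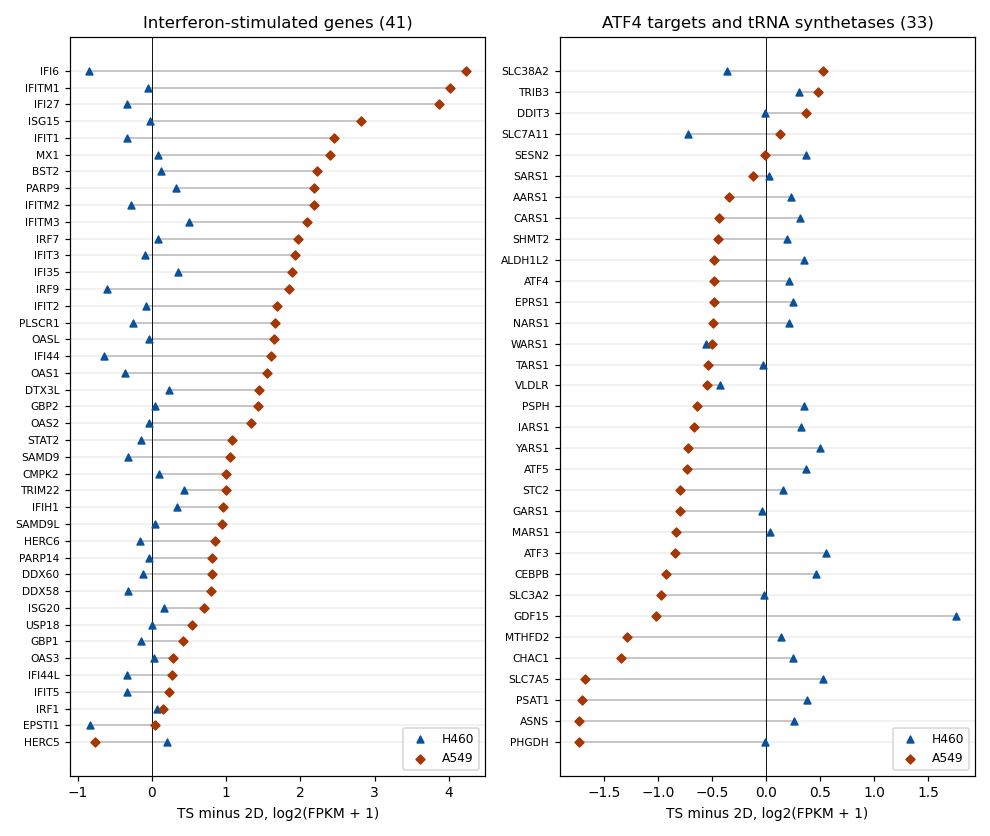
Responses of 41 of the 42 detected interferon-stimulated genes and the 33 ATF4 targets and tRNA synthetases, with a triangle for H460 and a diamond for A549 on the scale TS minus 2D, log2(FPKM + 1). In the left panel the diamonds run out to 4.24 for IFI6 while the triangles stay between -0.85 and 0.49; in the right panel 29 diamonds lie left of 0 and 24 triangles right of it, with GDF15 widest apart.

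Some genes of mucus and airway epithelium were higher in A549 TS cells, and most were not detected in H460, where 1 of 4 mucins and 6 of 17 airway genes reached an FPKM of 1. Only 4 of 13 listed mucins were detected, 1 of them in A549 TS cells alone, so their direction was partly set by the filter. The gel-forming MUC5B went from 0.259 to 92.1 and MUC5AC from 24.1 to 173 in A549, while neither exceeded 0.472 in H460. Of 28 listed alveolar and airway genes 17 were detected, 9 of these were more than 2-fold higher and 1 lower in A549, and 7 reached an FPKM of 1 in A549 TS cells alone. Over the 10 detected in a 2D library, 3 were higher and 1 lower in A549, the median was 0.16 in place of 1.18, and the call of A549 only was lost. The trefoil peptide TFF1, which is secreted with mucus, went from 0.699 to 52.0, and the airway host defence protein BPIFB1 from 0 to 26.2, and both were listed at 0 in the 4 H460 libraries. SPDEF, a transcription factor of goblet cells, went from 0.831 to 13.7, and was likewise at 0 in H460.

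AGR2 was among those expressed in H460, at 242, 345 and 175 in 2D cells and 122 in TS cells, against 62.0 and 1322 in A549 2D and TS cells (adjusted p of the difference 0.0251, edgeR). FOXA1, a factor that opens epithelial enhancers, was at 14.7 to 19.9 in H460 2D cells and 13.97 in H460 TS cells and went from 2.27 to 14.7 in A549. The lines were therefore at the same FOXA1 level as TS cells but not as 2D cells. LPCAT1, an enzyme of surfactant lipid, went the other way, from 29.3 to 13.6 in A549.

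Keratins split into groups in A549. Of 12 detected keratins, 7 were more than 2-fold higher and 4 lower in A549 TS cells (medians 1.28 in A549 and 0.10 in H460). Over the 10 detected in a 2D library, 5 were higher and 4 lower, with a median of 0.90 in A549. KRT8 and KRT18, the pair of simple epithelia, went from 1446 to 3866 and from 1341 to 3229, and KRT20, of gut epithelium, from 0 to 31.4, with 0 in all H460 libraries. KRT4 and KRT15, of layered epithelia, went from 3.83 to 35.1 and from 1.29 to 18.0. KRT7, KRT80, KRT81 and KRT86 were lower, as with KRT81 from 1246 to 498.6. The edgeR test passed for KRT19 and KRT4 (adjusted p 0.0149 and 0.0376). KRT4 had only 6 to 11 reads in the H460 2D libraries and 0 in H460 TS cells. Its tested difference of 9.33 on the read counts therefore rests in part on that fall to 0. Among 22 claudin and desmosome genes 7 were higher and none lower in A549, led by the pore-forming CLDN2 (10.5 to 178), and none passed 2-fold in H460. Of these genes, 4 were detected in A549 TS cells alone, and 5 of the 17 detected in a 2D library were higher.

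Among plasma proteins known from liver, 10 of 28 were detected, 4 of them in A549 TS cells alone, and 8 were below an FPKM of 1 in H460. Of the 6 detected in a 2D library, 4 were more than 2-fold higher and 1 lower in A549 and 2 were higher in H460 (medians 1.21 and 0.37), and the call of A549 only was lost. ITIH2, which binds hyaluronan, went from 0.407 to 14.2, and APOH from 3.07 to 35.4, both at 0 in H460. The fibrinogen chains were higher in both lines to unequal extents: FGG went from 0.383 ± 0.1004 (n = 3) to 43.04 in H460 and from 10.6 to 24.9 in A549, and FGA from 0 in the 3 H460 2D libraries to 4.50, and from 12.1 to 40.7 in A549. The difference between responses passed for FGG and FGA, with H460 above (adjusted p 0.0251 and 0.019, edgeR).

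Of 33 detected complement and coagulation genes, 16 were higher and 1 lower in A549, and 5 were higher and 5 lower in H460. Their medians were 0.98 and 0, and 0.97 and -0.01 over the 26 members detected in a 2D library. CFB, a protease of the alternative pathway, went from 0.294 to 8.34 in A549 and did not exceed 0.0221 in H460. C3, the central complement component, was higher in both, from 2.76, 0.445 and 1.35 to 19.3 in H460 and from 18.8 to 44.0 in A549. PLAT, the tissue plasminogen activator, was lower in H460, at 6.11 to 12.7 in 2D cells and 0.934 in TS cells, with 1.03 and 0.729 in A549. TFPI2, an inhibitor of matrix proteases, was at 52.8 to 104.4 in H460 2D cells and 271 in H460 TS cells, and at 43.7 and 30.5 in A549.

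Of 16 detected serpins 7 were higher and 1 lower in A549, and 1 was higher and 1 lower in H460. Over the 12 that reached an FPKM of 1 in a 2D library the A549 median was 0.41, under the limit for the call. SERPINA1, the inhibitor of neutrophil elastase, went from 0.487 to 180.6 in A549 and was listed at 0 in H460, whereas SERPINA3 was higher in both lines (0.570 to 89.6 in A549, 0 to 3.55 in H460).

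Lysosomal genes were higher by small steps in A549. Of 36 members, 31 had a positive A549 response and 9 passed 2-fold, with medians of 0.70 in A549 and -0.02 in H460. The protease CTSD went from 130.5 to 484.8 in A549, and was at 110.3 to 188.5 in H460 2D cells and 225.9 in H460 TS cells. CTSS went from 2.03 to 13.6 in A549 and did not exceed 0.633 in H460. HEXA, a subunit of beta-hexosaminidase, went from 16.3 to 28.9 in A549, and was at 2.65 to 3.17 in H460 2D cells and 0.263 in H460 TS cells. It was the member that passed (adjusted p 0.0257, edgeR). All 19 members of the unfolded protein response had a positive A549 response (median 0.65) and 14 had one in H460 (median 0.12), and XBP1, its transcription factor, went from 22.4 to 73.7 in A549 with 33.6 to 43.4 and 38.5 in H460.

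The S100 list, small calcium-binding proteins, had medians of -0.25 in H460 and 0.63 in A549. S100P went from 7.53 to 118.7 in A549 and was at 73.8 to 98.5 and 74.4 in H460 2D and TS cells (adjusted p of the difference 0.0334, edgeR). S100A6 was at 1298 to 1791 in H460 2D cells and 865 in H460 TS cells, and went from 1327 to 1981 in A549. Only 2 of 10 members passed 2-fold in A549, and the list was not opposite without H460 2D replicate 2.

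Further lists met the rule for A549 only, but not under every setting. Of 32 chemokine, cytokine and NF-kappaB genes, 11 were higher and 3 lower in A549, and 4 were higher in H460. The list lost the call without H460 2D replicate 1, with a pseudocount of 0.1, and over the 26 members that reached an FPKM of 1 in a 2D library (A549 median 0.18). The chemokine CXCL8 went from 4.42 to 29.1 in A549, and was at 61.0 to 94.8 in H460 2D cells and 121 in H460 TS cells. IL1A was at 0.841 to 2.42 in H460 2D cells and 57.6 in H460 TS cells, and reached only 0.789 in A549 TS cells, whereas IL6 was at 60.3 to 108.2 and 109.4 in H460 and went from 2.31 to 0.122 in A549. Of 13 neuroendocrine and neuronal genes 5 were higher and 1 lower in A549 and 4 were higher in H460, and the call was lost with a pseudocount of 0.1. Of 19 ABC transporters 5 were higher and 1 lower in A549 and none passed 2-fold in H460, and the median of the 15 that reached an FPKM of 1 in a 2D library was 0.20, so the call was lost.

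Genes of cell division were lower in A549 TS cells. All 32 DNA replication genes and all 30 mitosis genes had a negative A549 response, with medians of -0.73 and -0.73, though only 3 and 5 passed 2-fold. In H460 the medians were -0.03 and -0.15, and the TS library lay within the range of the 2D libraries for 27 and 25 of them. The mitotic activator CDC20 went from 110.8 to 40.6 in A549, and was at 48.7 to 96.8 in H460 2D cells and 61.8 in H460 TS cells. Replication helicase subunit MCM2 went from 41.2 to 19.0 in A549, with 28.7 to 44.3 and 34.9 in H460. No member of these lists passed the test by edgeR or DESeq2, and 0 had an unadjusted edgeR p below 0.05. Without H460 2D replicate 3, the mitosis and tubulin lists no longer met the rule for A549 only.

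Collagens were mixed in A549, with 5 of 19 higher and 6 lower (median -0.65, against -0.13 in H460). Basement membrane chains split by pair: COL4A1 and COL4A2 went from 17.4 to 1.95 and from 35 to 6.99, while COL4A5 and COL4A6 went from 5.35 to 25.8 and from 8.41 to 36.4. In H460 these 4 chains had responses of -0.10 to 0.44. Genes induced by TGF-beta were mixed as well, with 6 higher and 9 lower of 25 in A549, and lost the call of A549 only without H460 2D replicate 2. With a pseudocount of 0.1, both this list and the collagens lost it. The fibronectin gene FN1 went from 30.9 to 1136 in A549, and was at 170.7 to 910.7 in H460 2D cells and 610.5 in H460 TS cells. TGFBI and SNAI1, other TGF-beta responsive genes, went from 300.5 to 69.8 and from 5.67 to 0.617.

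The YAP/TEAD targets, genes of spread and attached cells, were lower in both lines but to unequal extents, with 13 of 25 lower and 2 higher in A549, 7 lower and 1 higher in H460, and medians of -1.06 and -0.39. The H460 median was -0.23 without H460 2D replicate 3 and -0.55 without replicate 1. CCN1 was lower in both, from 64.4 to 7.56 in A549 and from 48.5 ± 13.2 (n = 3) to 19.0 in H460. AMOTL2 and NUAK2 were lower in A549 only. The receptor AXL went from 75.8 to 18.3 in A549 and from 4.87, 4.95 and 7.33 to 0.0400 in H460, and its difference passed the test (adjusted p 0.0376, edgeR). Cholesterol genes were higher in both lines, 21 of 25 in H460 and 15 in A549 with none lower, and the H460 median was the larger (1.77 against 1.05). The subunits of respiratory complexes I and V, 38 genes, had none past 2-fold in either line.

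Many of the genes that were higher in A549 only were below an FPKM of 1 in H460, which the rule itself favoured. Of the 562 higher genes, 316 were below an FPKM of 1 in the 4 untreated H460 libraries. The same share over all genes is not given, so 316 of 562 cannot be called high or low. A gene near 0 in H460 can hardly move there on log2(FPKM + 1), and it could pass the filter through A549 alone. Where 2 libraries had to reach an FPKM of 1, the 562 became 337. The medians of the 562 were 1.22 in A549 2D cells, 8.34 in A549 TS cells and 0.301 in H460 2D cells. In 46 of the 562, the H460 mean was already at or above the A549 TS value. CEACAM6, an adhesion protein of epithelial surfaces, went from 3.67 to 813.9, and CST1, a secreted cystatin, from 0.264 to 219.2, and both were listed at 0 in the 4 H460 libraries. FCGBP, a mucus protein, went from 0.378 to 147.5 and did not exceed 0.0146 in H460 (adjusted p of the difference 0.0246, edgeR).

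LCN2, an iron-sequestering lipocalin, went from 0.265 to 122.9 in A549, and was at 0 in the H460 2D libraries and 0.211 in H460 TS cells. Lysozyme (LYZ) went from 0 reads in A549 2D cells to 4572 reads and an FPKM of 37.8 in A549 TS cells. Of the other leukocyte markers CD14 was also higher, going from 2.37 to 10.1 in A549, with 2.78 to 9.49 and 8.68 in H460 2D and TS cells, but PTPRC, CD3E, CD3D and TYROBP were at or near 0 in A549 TS cells. The imprinted non-coding RNA H19 went from 5.34 to 278.6 in A549 and did not exceed 0.0327 in H460, and the neighbouring growth factor gene IGF2 went from 0.587 to 25.4 with at most 0.0112 in H460. With so few reads, the response in H460 could not be measured for the genes at or near 0 there. CEACAM6, CST1, SERPINA1, LCN2 and H19 did not pass the edgeR test (adjusted p 1).

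Of the 202 genes lower in A549 only, 94 were below an FPKM of 1 in H460. The rule favoured such genes as well, and the share over all genes is not given. IL11, a cytokine of the IL-6 family, went from 22.2 to 0.284 in A549 and was at 0.0278 to 0.0453 in H460 (adjusted p 0.0251, edgeR). NPTX1, a neuronal pentraxin, went from 10.5 to 0.115 in A549, and was at 0.308 to 0.526 in H460 2D cells and 0.104 in H460 TS cells (adjusted p 0.0424, edgeR). A549 2D cells were thus the only library in which either gene was well expressed.

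NXN, AMOTL2 and NUAK2 were expressed in H460, with small responses there. NXN, a thioredoxin-like regulator of WNT signalling, went from 20.8 to 2.46 in A549, and was at 6.86 to 8.88 in H460 2D cells and 8.72 in H460 TS cells. AMOTL2, an angiomotin that binds YAP, went from 36.7 to 3.58 in A549, with 6.69 to 12.2 and 8.12 in H460. The kinase NUAK2 went from 21.6 to 3.18 in A549, with 1.97 to 2.78 and 3.14 in H460. Unlike these, SUSD2, a surface protein, and COL5A1, a fibrillar collagen, were below an FPKM of 1 in H460. They went from 22.0 to 1.22 and from 7.30 to 0.216 in A549. SUSD2 was at most 0.0339 in the H460 libraries. COL5A1 was also lower in H460 TS cells, at 0.0309 (19 reads), than in H460 2D cells, at 0.0885 to 0.210 (56 to 154 reads). Its H460 response of -0.177 on log2(FPKM + 1) understates this fall.

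Genes with a response in H460 only were fewer, and 54 of the 84 higher ones were below an FPKM of 1 in both A549 libraries. The rule favoured such genes here too, and without the share over all genes this count cannot be called high or low. NTS, the peptide neurotensin, was at 0.25, 1.57 and 0.786 in H460 2D cells and 121.7 in H460 TS cells, and at 12.3 and 16.4 in A549. NTS was thus expressed in A549 in both cultures, and H460 TS cells were the highest of the 6 libraries. Its difference did not pass the test (adjusted p 0.0693, edgeR).

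LCN1, a lipocalin of tears, was at 2.52, 6.44 and 10.7 in H460 2D cells and 130.7 in H460 TS cells, and NPTX2, a second neuronal pentraxin, at 3.86, 1.31 and 1.09 and 36.95. Both had no reads in A549. LCN1 has near-identical relatives, so its reads may be shared. HVCN1, a proton channel, was at most 0.0790 in H460 2D cells and 15.7 in H460 TS cells. CHI3L2, a chitinase-like protein, was at 0.212 to 0.791 and 26.1, and CYB5R2, a reductase, at 0.405 to 0.716 and 15.96. None of these exceeded 0.694 in A549.

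EFR3B, which anchors a lipid kinase at the membrane, was at 0.502 to 0.622 in H460 2D cells and 7.21 in H460 TS cells, with 4.54 and 3.14 in A549 (adjusted p 0.0286, edgeR). NCAM1, a neural adhesion molecule, was at 0.00459 to 0.0102 in H460 2D cells and 1.59 in H460 TS cells and had at most 0.00452 in A549 (adjusted p 0.0459, edgeR). EWSAT1, a long non-coding RNA, went from 1.82 ± 0.858 (n = 3) to 17.5 in H460.

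Of the 89 genes lower in H460 only, CRYAB, a small heat shock protein, went from 10.3 ± 1.15 (n = 3) to 0.396, with 0.294 and 0.299 in A549. H460 TS cells were thus near the A549 level of CRYAB. TNXB, a matrix protein, was at 3.87 to 5.43 in H460 2D cells and 0.0370 in H460 TS cells (adjusted p 0.0149, edgeR), and its reads may be shared with TNXA. PLA2R1, a phospholipase receptor, went from 1.62, 4.93 and 3.36 to 0.0191 in H460, with 0.962 and 1.73 in A549 (adjusted p 0.019, edgeR). Its A549 read counts rose more than its FPKM, from 334 in 2D cells to 1465 in TS cells. The test used the counts, so PLA2R1 was a gene of H460 only by FPKM but not by counts.

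Others of this group stayed high in A549. CD9, a tetraspanin of the cell surface, was at 7.98, 12.5 and 7.71 in H460 2D cells and 1.28 in H460 TS cells, and at 52.4 and 71.8 in A549. EEF1A2, an elongation factor isoform, was at 29.9 to 48.8 and 6.34 in H460, and at 41.1 and 57.4 in A549. LBH, a transcription cofactor, was at 9.56 to 16.4 and 1.60 in H460, and at 15.98 and 17.9 in A549. CD24, a surface glycoprotein used with CD44 to sort tumor cells, was at 122.5, 212.5 and 110.9 in H460 2D cells and 3.97 in H460 TS cells, and at 147 and 243.6 in A549, and its reads may be shared with a pseudogene. Its A549 response of 0.73 kept it out of the class, and its difference of 5.58 on the log2 scale passed the test (adjusted p 0.0246, edgeR). CD44 was at 36.8 to 39.9 in H460 2D cells and 8.25 in H460 TS cells, and at 86.9 and 134.7 in A549, and did not pass (adjusted p 0.0943, edgeR). RN7SL2, a small RNA of the signal recognition particle, met the rule as well, but ranged from 33.3 to 279.7 over the H460 2D libraries.

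**Figure D5:**
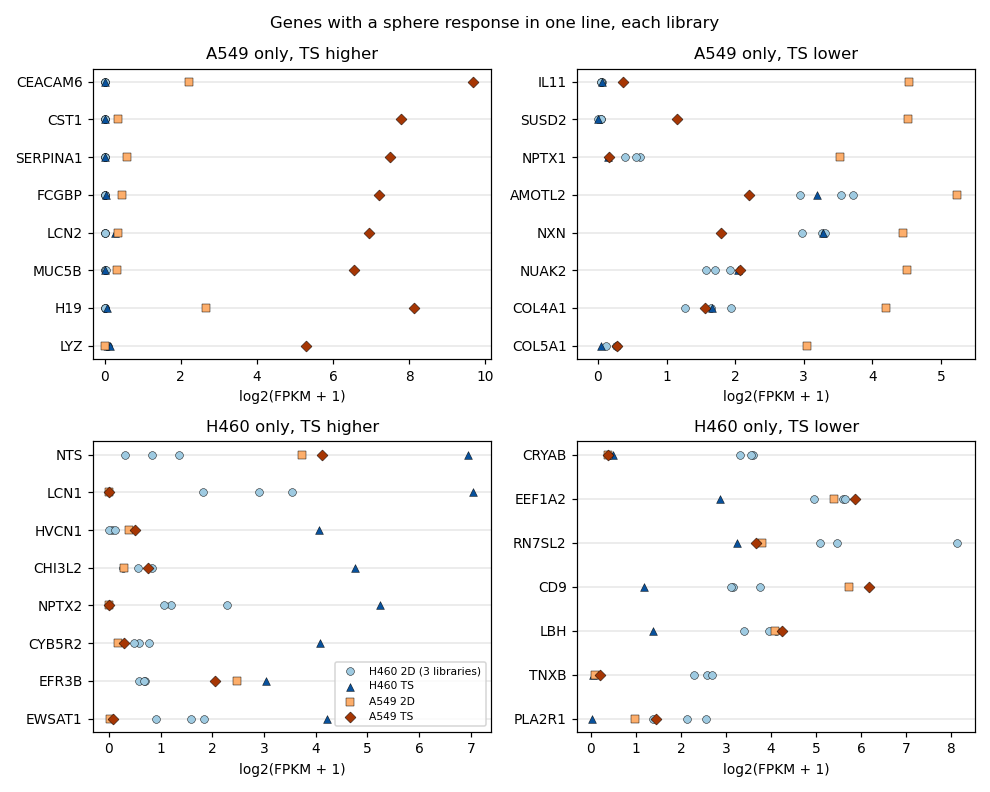
Genes with the largest gaps in each class of a response in 1 line only, with each library on log2(FPKM + 1) (circles H460 2D, triangles H460 TS, squares A549 2D, diamonds A549 TS). In the upper left panel all H460 symbols lie near 0. In the lower panels the H460 triangle stands apart from its 3 circles while the A549 symbols lie together. This was set by the choice of genes, which required H460 TS to be more than 2-fold from every H460 2D library.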

How the data were processed

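Poly(A) RNA was sequenced in 10 libraries. The authors deposited, for each of 46427 NCBI genes and each library, a read count, an FPKM value (normalized for transcript length and library size) and a TPM value, which is the same measure scaled to a fixed total per library. The submitters' processing notes name bcl2fastq 1.8.4, Trimmomatic, HISAT2 2.1.0, StringTie 2.1.3b and GRCh38, and the handling of shared reads and of strand is not given in the sources used here. TPM was not used further. Libraries were grouped by their labels.

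Responses were computed on log2(FPKM + 1), which understates differences of genes near 0, for genes that reached an FPKM of 1 in any of the 6 libraries. The difference between the responses of the lines was tested on the deposited counts with edgeR 4.0.16 in R 4.3.3 (filterByExpr, TMM, glmQLFit, glmQLFTest) at a Benjamini-Hochberg adjusted p of 0.05. The replicates are not said to come from separate cultures, so the p-values measure only the spread between these libraries. The test was checked on simulated counts where 17.5% of 97 genes changed by 2 on the log2 scale and 78.6% of 103 changed by 3 were recovered over 18941 genes, and 2.97% of calls were false. DESeq2 1.42.0 and limma 3.58.1 were alternatives, with other scalings, pseudocounts, filters and each H460 2D library left out. Lists over members detected in a 2D library were added after seeing the data. Named are, in each opposite direction, the 10 genes with the largest smaller response, and in each class of 1 line the 8 with the largest gap. Members of the 43 lists described with their list are named as well. For H460 only, the 8 were taken among genes with H460 TS more than 2-fold from every H460 2D library on log2(FPKM + 1). That held for 68 of the 84 higher and 53 of the 89 lower genes. Some genes that this rule names are not reported here, but counts and medians include them. Genes, lists and cut-offs were chosen with earlier results of these data known. Positions and promoters are from RefSeq (GRCh38.p14). With 62073451 to 73644667 reads on genes per library, the few libraries set the precision rather than depth. Python 3.11.15, pandas 2.3.3 and matplotlib 3.10.9 were used.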

Additional observations from a re-analysis of the deposited data

Results flagged for a closer look

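The difference between the responses of the lines itself passed the edgeR test for 87 genes. Named genes and list members among them are given here with the A549 response minus the H460 response on log2(FPKM + 1). The tested difference was that of the read counts, which edgeR put at 5.09 for AXL, 9.64 for SERPINB5 and -10.8 for FGA. The A549 response was above that of H460 for FCGBP (6.74), CD24 (5.58), AGR2 (5.39), KRT19 (5.35), LYZ (5.18), IFI6 (5.09), COL3A1 (4.85), LGALS3 (4.59), NT5E (4.43), SYBU (4.43), IFI27 (4.20), S100P (4.04), CAPG (3.55), EMP1 (3.31), PRR5L (3.23), KRT4 (2.97), TNXB (2.58), PLA2R1 (2.47), HEXA (2.44), IFI44 (2.25), IGFBP5 (1.42), SERPINB5 (0.97), DSC3 (0.80) and AXL (0.68). It was below that of H460 for IL11 (-4.19), FGG (-3.84), ADAM19 (-3.80), CA8 (-3.33), NPTX1 (-2.996), EFR3B (-2.80), NCAM1 (-1.37) and FGA (-0.79). The adjusted p-values of IGFBP5, SERPINB5, DSC3 and AXL were 0.016, 0.0499, 0.0494 and 0.0376 by edgeR. SERPINB5, IGFBP5 and LYZ had 0 reads in A549 2D cells, and DSC3 and KRT4 had 0 in H460 TS cells. FGA had 0 reads in the 3 H460 2D libraries, and NCAM1 had 3 in A549 2D cells and 0 in A549 TS cells. The size of the tested difference is uncertain for these genes. The spread in this test came from the H460 2D libraries alone.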

How the results depend on the processing

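No paired analysis was possible because the TS groups and A549 2D hold 1 library each, so the groups compared share fewer than 2 replicate numbers. The 87 genes whose response differed between the lines (68 with A549 above, 19 below) became 539 by DESeq2 (401 and 138), 27 by limma on log2(FPKM + 1) (25 and 2), 209 with all 10 libraries in the fit (155 and 54) and 0 with no filter on low counts (0 and 0, with 1637 genes at an unadjusted p below 0.05). Upper-quartile and relative log expression scaling gave 69 and 82. Leaving out each H460 2D library gave 116 to 656 genes (81 to 462 above, 35 to 194 below). The highest count, 656, was without H460_2D replicate 1, and 143 genes passed without replicate 2, the only one of the 6 libraries with another form of library name. The 41 opposite genes became 185 with a pseudocount of 0.1 (117 higher in A549 TS cells, 68 higher in H460 TS cells) and 698 on log2 CPM (418 and 280), and these held 41 and 40 of the 41. The 41 became 23 where H460 TS had to be 2-fold from every 2D library on log2(FPKM + 1) (15 and 8). They became 44 with upper-quartile scaling (38 and 6, with 37 shared). Without 1 H460 2D library they became 37 to 59, of which 32 to 39 were shared. The A549 only genes became 1271 higher and 616 lower with the pseudocount of 0.1 and 2112 and 1250 on log2 CPM, and 337 were higher where 2 libraries had to reach an FPKM of 1. The H460 only genes became 334 higher and 366 lower, and 994 and 733, under the same settings. They also became 42 higher with the stricter FPKM filter, 53 lower against every 2D library and 134 lower with the other line allowed up to 1. The 20 lists with a response in A549 only became 18 with a pseudocount of 0.1 (16 shared), 21 with upper-quartile scaling (20 shared), 19 to 20 without 1 H460 2D library (18 to 19 shared) and 15 over members detected in a 2D library (15 shared), an alternative chosen after seeing the data. The count for H460 only was 1 rather than 0 without replicate 1, without replicate 3 and over members detected in a 2D library. The edgeR difference of H19, which has few reads in H460, changed sign: it was 0.0072 with relative log expression scaling, 0.53 by DESeq2, 5.42 by limma and -0.0106 to 0.0122 without 1 H460 2D library. That of SUSD2, at 0 in H460 TS cells, was -3.35 by limma and of the other sign by edgeR. No scaling moved the median response of all genes by more than 0.1.

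Responses of genes with few reads in a line, among them many A549 only genes in H460, could not be measured. Each TS group is 1 library, so no spread between TS libraries is known. The medium and the suspended state changed together.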

Other observations

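The 4 H460 libraries of cells that had survived a drug were not used in the comparison. Of the 316 A549 only higher genes below an FPKM of 1 in the untreated H460 libraries, 273 were also below 1 in the drug-survived libraries, and 17 reached 1 in all 4 of them. Among these were the interferon-stimulated genes IFIT2, at 1.47 to 5.34 in drug-survived cells and at most 0.852 in untreated H460 cells, and OASL, at 1.82 to 4.32 and at most 0.0430. IFITM10 was at 3.04 to 14.7 and at most 0.913, and the keratin KRT15 at 2.17 to 3.36 and at most 0.568. IGFBP1, a binding protein of insulin-like growth factors, was at 2.23 to 5.03 and at most 0.438, against 83.8 in A549 TS cells. These genes were picked for the pattern, so the values are a description. The same share over all genes below 1 in untreated H460 cells is not given, so 17 of 316 cannot be called high or low.

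The insulin-like growth factor system held responses of several kinds among its 16 detected members, none of them opposite. IGFBP3 was higher in both lines (143.5 to 1226 in A549; 79.9, 454.8 and 480.3 to 1092 in H460), and IGFBP7 was lower in both (17.4 to 2.12 in A549; 14.4, 14.7 and 14.6 to 0.644 in H460). IGFBP1 was higher in A549 only (7.97 to 83.8). IGFBP2 was at 35.7, 52.3 and 41.0 in H460 2D cells and 7.34 in H460 TS cells, and at 22.4 and 38.5 in A549, and its difference between responses did not pass (adjusted p 0.0675, edgeR). Of 15 detected EGF receptor ligands and receptors, 5 were more than 2-fold lower and 2 higher in A549 TS cells, with a median of 0.03. The ligand genes EREG and AREG were among the lower ones, at 33.1 and 9.74 and at 42.6 and 14.5 in A549 2D and TS cells, and neither exceeded 0.839 in H460.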
